A study of Mus musculus with 6 samples.

Results

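The enzymes that make serine and pass its carbon into the folate pool were followed in 4T1-tetL1(GLucAI) cells, a line derived from the mouse breast carcinoma line 4T1, with and without induction of a LINE-1 (L1) retrotransposon. The members are 9 genes, matched by symbol in a table of 24421 genes. Phgdh, Psat1, Psph, Shmt1 and Mthfd1 encode cytosolic enzymes, 5 in all, and Shmt2, Mthfd2, Mthfd1l and Aldh1l2 encode the 4 mitochondrial ones. Total RNA was sequenced from 3 untreated libraries, which the treatment tag calls vehicle, and from 3 libraries labelled doxycycline at 400 ng/mL for 48 h, called doxycycline libraries below. Both groups are BALB/cfC3H cells of the same blasticidin-selected, PiggyBac-transfected population, which is a pool and not a clone. All of them carry the recoded mouse L1 with its Gaussia luciferase readout behind a tetracycline-responsive promoter, and the transactivator that doxycycline switches on. That promoter works in both directions and also drives firefly luciferase. No cells without the cassette were given doxycycline among these samples, so the drug, the L1 element and the firefly luciferase cannot be told apart. The transcript of the cassette was not analysed here, and each direction below rests on the labels.

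Proliferating cells branch serine off glycolysis. Phgdh oxidizes the glycolytic intermediate 3-phosphoglycerate, Psat1 transfers an amino group to the product, and Psph removes the phosphate to give serine. Serine hydroxymethyltransferases, Shmt1 in the cytosol and Shmt2 in mitochondria, then split serine into glycine and a carbon unit carried by tetrahydrofolate. In mitochondria Mthfd2 oxidizes this unit and Mthfd1l releases it as formate, which crosses to the cytosol. There the trifunctional enzyme Mthfd1 returns it to folate for purine, thymidylate and methionine synthesis, while Aldh1l2 burns mitochondrial formyl-folate to carbon dioxide with gain of NADPH. Tumor cells often express the mitochondrial branch strongly, and ATF4, a transcription factor of the amino acid response, is a known activator of several of these genes.

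Mthfd2 was the member whose change passed the threshold, and the sequence before its start is shown for that reason. It lies at chr6:83317605-83317854 of GRCm38.p6, minus strand, read 5′ to 3′ from the RefSeq promoter table, and ends at the base before the start that the table gives. Capitals mark CCAAT, the letters of the CCAAT box that the factor NF-Y binds, on either strand.

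Mthfd2: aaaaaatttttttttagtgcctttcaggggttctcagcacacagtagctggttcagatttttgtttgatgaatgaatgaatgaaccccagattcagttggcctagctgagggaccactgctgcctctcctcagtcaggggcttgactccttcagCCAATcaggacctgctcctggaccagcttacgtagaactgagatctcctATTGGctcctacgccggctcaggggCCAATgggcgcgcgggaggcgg

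The 250 bases held CCAAT 3 times. The annotated gene reaches further upstream, from another start. In windows of 300 bases, 250 before and 50 after each start, 8 of the 9 members were matched in the table, and 6 of these 8 genes held CCAAT on either strand, against 41.1% of the 27025 genes in the table. Of genes tested for expression and matched in the table, 4210 of 9798 held CCAAT. Counted by window, it was 6 of the members' 9 windows against 37.4% of all 32851 and 37.7% of those of tested genes. The matched members without it were Shmt2 and Mthfd1l. The GC box, GGGCGG, was held by 5 of the 8, against 38.2% of the genes in the table and 6666 of the 9798 tested genes. By window, it was held by 5 of 9, against 35.7% of all windows and 61.6% of the windows of genes tested for expression. For 5 cytosolic members a stretch of 30 bases before the start is shown, with the same letters in capitals, because, of the motifs searched, CCAAT was held by the most members. This stretch lies at chr3:98339975-98340004 for Phgdh, at chr19:15925078-15925107 for Psat1, at chr5:129787284-129787313 for Psph and at chr11:60811295-60811324 for Shmt1, all on the minus strand. For Mthfd1 it lies at chr12:76255151-76255180 on the plus strand.

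Phgdh: aagcatttctgaCCAATcaaaaggagactg
Psat1: tagtgagcgtggCCAATagggaggggagct
Psph: tgccgcccgctgATTGGcttaatccaacgc
Shmt1: atgctcccactgATTGGgccgctgtagggg
Mthfd1: acactatctctgATTGGctaaaagcgaggc

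The composite element through which ATF4 acts with C/EBP factors has the core TGATGNAA. On either strand it was found in 0 of the 9 windows of these 8 genes. The share was 3.97% of all windows and 2.31% of windows of genes tested for expression. The letters of the E-box, CACGTG, were also found in 0 of the 9, against 7.15% of all windows and 9.78% of those of tested genes. TGACGT, the core letters of the cAMP response element, was found in 2 of the 9, those of Psph and Mthfd1l. Its share was 7.51% of all windows and 11.4% of those of tested genes. For comparison, the window of Asns, the asparagine synthetase gene and an established ATF4 target, held the composite core at positions -23 to -16, where 0 is the start. Its 30 bases at chr6:7693214-7693243, minus strand, carry that core in capitals.

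Asns: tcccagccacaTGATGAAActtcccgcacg

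These matches describe the letters in the windows and were set against no binding data. For the composite core and the E-box, 0 of the members' 9 windows cannot be told from such low shares. Bases outside the windows were not searched.

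The 6 libraries held 31653464 to 43631312 counts, with overlapping ranges in the 2 groups. Levels are given as CPM, which divides each count by the TMM-adjusted size of its library in edgeR. A gene with 0 counts could have stood at up to 0.0683 to 0.0944 CPM, a limit of 3 counts that covers counting error alone. The 6 epithelial markers summed to between 1705 and 1930 CPM in every library, and 0 of them were called by edgeR, with 0 at an unadjusted p under 0.05 (Epcam 0.13 and Krt14 -0.20 on the log2 scale). Of 9 markers of immune, endothelial and fibroblast cells, 2 passed the filter, the macrophage marker Adgre1 had 0 counts in all libraries, and the leukocyte marker Ptprc reached at most 0.561 CPM. The list summed to 36.6 to 38.7 CPM in untreated and to 27.9 to 29.2 CPM in doxycycline libraries, nearly all of it Pdgfra, which fell by 0.40 on the log2 scale with an SE of 0.07 and an edgeR adjusted p of 0.000952. The part of this difference in the results below was not tested. In bulk RNA, more cells that express a gene and more transcript per cell cannot be told apart. The labels give no batch, and do not say whether libraries of a group came from separate cultures. The paper calls them biological triplicates. Each p-value sets the difference between the groups against the spread between these libraries.

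At baseline Psat1 and Phgdh, the first steps of serine synthesis, stood highest among the members. Levels between genes are compared as CPM per kilobase of exon, using the union of annotated exons. In untreated libraries the order was Psat1 at 81.1 ± 2.72 (SD, n = 3 in each group, here and below), Phgdh at 74.0 ± 4.34 and Shmt2 at 59.2 ± 0.81. Mthfd1 followed at 42.9 ± 0.94, then Mthfd1l at 23.8 ± 0.63, Mthfd2 at 21.1 ± 0.30 and Shmt1 at 18.5 ± 0.94. The phosphatase Psph stood lower, at 7.74 ± 0.22, and Aldh1l2 lowest, at 0.0477 ± 0.0245. No neighbours in this order overlapped over the 3 untreated libraries.

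In doxycycline libraries the order changed at 1 place. Mthfd2 stood at 26.4 ± 0.97 CPM per kilobase, above Mthfd1l at 25.01 ± 0.76, and the ranges of this pair overlapped. Psat1 at 85.8 ± 2.79 and Phgdh at 82.7 ± 8.07 also overlapped, so that their order was not resolved. The other neighbours stayed apart. The position of close neighbours depends on the exon lengths assigned to them.

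**Figure D1:**
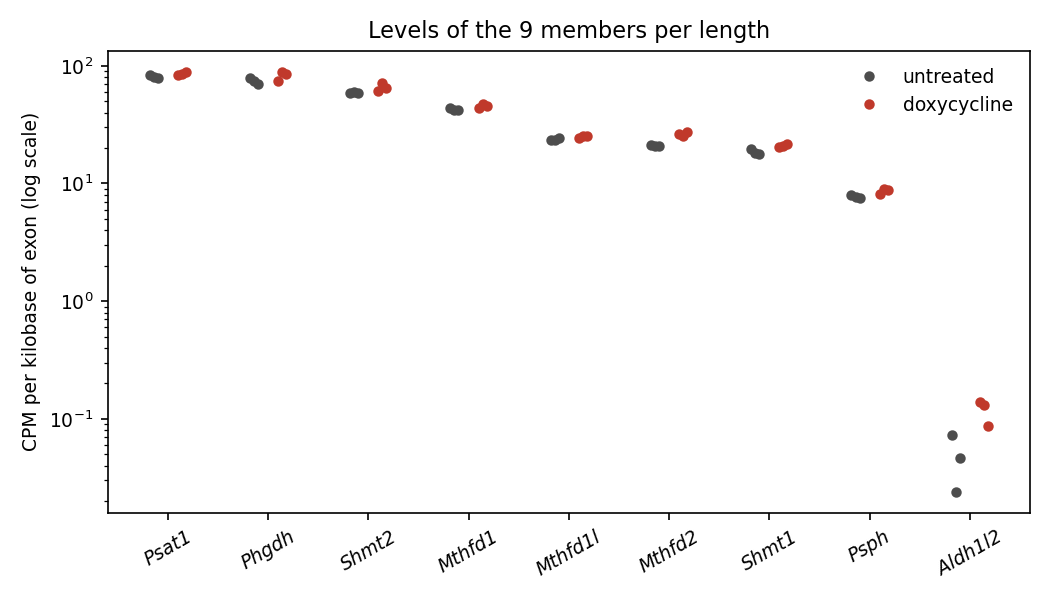
Level of each member in each library as CPM per kilobase of exon on a log axis, with untreated libraries in grey and doxycycline libraries in red. From Psat1 at about 81.1 to Psph at 7.74 in untreated libraries the genes form a descending series, and Aldh1l2 lies far below it in both groups, at 0.0477 and 0.119.

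Doxycycline libraries were then compared with untreated libraries for the members. Mthfd2 rose 1.25-fold, and the other 7 well-counted members had fitted increases of 5.22 to 13.2% that did not pass the threshold. A gene was called where its Benjamini-Hochberg adjusted p over all 13084 genes tested, from the quasi-likelihood test of edgeR, was below 0.05. This held for 3.09% of them, with 0.925% higher and 2.16% lower. All 9 members passed the filter on low counts. Aldh1l2 is set apart because it reached the filter's cutoff in 2 of 3 untreated and 3 of 3 doxycycline libraries. Of the other 8 members, 1 was called higher and 0 lower by edgeR, and the DESeq2 Wald test and limma voom also called 1 higher and 0 lower. At an unadjusted p under 0.05 there were 5 of the 8, all higher, against 2119 genes or 16.2% of all genes tested. The fitted log2 fold change was above 0 for 8 of 8, against 50.8% of all genes tested, with a median of 0.15, where the median of all genes tested was 0.002. The doxycycline libraries all lay above the untreated ones for 4 of the 8, against 10.1% of all genes tested, and 21.3% had groups that did not overlap in either direction. The members were chosen with results of these libraries known, so these counts describe the list.

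**Figure D2:**
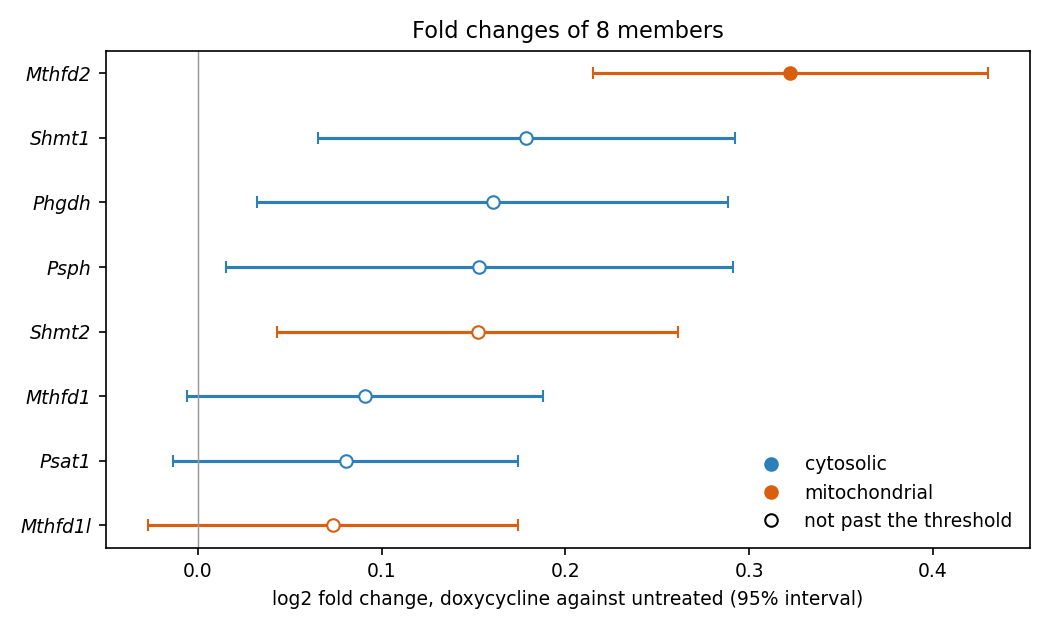
Log2 fold change of 8 members, doxycycline against untreated, with 95% intervals that are not adjusted for the number of genes. Mthfd2 at 0.32 carries the filled point and was past the threshold, and the intervals of Mthfd1, Psat1 and Mthfd1l include 0.

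The serine synthesis enzymes come first in the path. Phgdh (NCBI Gene 236539, chromosome 3, 98313171 to 98339969, protein-coding) stood at 195, 184 and 173 CPM in untreated replicates 1 to 3 and at 183, 221 and 213 CPM in doxycycline replicates 1 to 3. The first doxycycline library lay inside the untreated range and the other two above it. Its log2 fold change was 0.16 with an SE of 0.06 and an edgeR adjusted p of 0.187. A pseudogene, Phgdh-ps1, is annotated, and how reads that match both were counted is not given in the sources used here.

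Psat1 (NCBI Gene 107272, chromosome 19, 15905123 to 15925059), the aminotransferase, had 359, 339 and 338 CPM in untreated and 356, 360 and 379 CPM in doxycycline libraries. The groups overlapped, and its log2 fold change of 0.08 had a 95% interval from -0.01 to 0.17 (edgeR adjusted p 0.397). Psat1 overlaps the processed pseudogene Gm3329 on the opposite strand. Psph (NCBI Gene 100678, chromosome 5, 129765558 to 129787443), which releases free serine, had 34.5, 33.3 and 32.6 CPM against 35.0, 38.9 and 37.8 CPM. Its groups did not overlap, although the first doxycycline library came close to the untreated ones. The log2 fold change was 0.15 with an SE of 0.07 and an edgeR adjusted p of 0.245. Psph overlaps the chaperonin gene Cct6a on the opposite strand, which had 685 ± 7.497 and 720 ± 34.1 CPM.

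The cytosolic folate enzymes did not pass the threshold. Shmt1 (NCBI Gene 20425, chromosome 11, 60788897 to 60811265) had 75.9, 70.8 and 68.8 CPM in untreated and 79.8, 80.6 and 83.6 CPM in doxycycline libraries. All doxycycline libraries lay above the untreated ones, at a log2 fold change of 0.18, with an SE of 0.05 and an edgeR adjusted p of 0.0824. Shmt1 overlaps Smcr8 on the opposite strand, which had 105 ± 2.59 and 105 ± 4.79 CPM in the 2 groups.

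Mthfd1 (NCBI Gene 108156, chromosome 12, 76254406 to 76319820), the trifunctional enzyme that receives formate in the cytosol, had 195, 188 and 188 CPM against 194, 212 and 203 CPM. Its groups overlapped through the first doxycycline library. The log2 fold change was 0.09, with a 95% interval from -0.01 to 0.19 (edgeR adjusted p 0.342).

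Among the mitochondrial enzymes Shmt2 (NCBI Gene 108037, chromosome 10, 127517123 to 127522444) had 183, 187 and 182 CPM in untreated and 188, 222 and 203 CPM in doxycycline libraries. The untreated libraries were close to each other, and the doxycycline libraries lay above them with a wider spread. Its log2 fold change was 0.15 with an SE of 0.05 and an edgeR adjusted p of 0.132. Without doxycycline replicate 1, Shmt2 and Phgdh passed the threshold, at 0.21 (edgeR adjusted p 0.0171) and 0.24 (edgeR adjusted p 0.00834). Without doxycycline replicate 2 they stood lower, Shmt2 at 0.09 (edgeR adjusted p 0.217) and Phgdh at 0.10 (edgeR adjusted p 0.381), while Shmt1 passed the threshold at 0.18 (edgeR adjusted p 0.0273). In the other fits that left out a library none of these passed.

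Mthfd2 (NCBI Gene 17768, chromosome 6, 83305704 to 83326011), the dehydrogenase and cyclohydrolase of the mitochondrial branch, had 74.6, 73.3 and 72.5 CPM in untreated replicates 1 to 3. Doxycycline replicates 1 to 3 had 91.4, 88.8 and 95.5 CPM. The gap between the groups was wider than the range within either of them. The log2 fold change was 0.32 (SE 0.05, 95% interval 0.22 to 0.43, edgeR adjusted p 0.000682), rank 66 by p among all genes tested. It stayed past the threshold in all 6 fits that each left out a library, with log2 fold changes of 0.29 to 0.35 and a largest edgeR adjusted p of 0.0143. The annotated locus Gm43890 overlaps Mthfd2 on the same strand, and its part in these values was not tested.

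Mthfd1l (NCBI Gene 270685, chromosome 10, 3972892 to 4167081), which releases formate in the same branch, had 103, 104 and 109 CPM in untreated and 107, 113 and 112 CPM in doxycycline libraries. The groups overlapped. The log2 fold change of 0.07 was the smallest of the members, with a 95% interval from -0.03 to 0.17 (edgeR adjusted p 0.486). Mthfd1l overlaps the processed pseudogene Gm16074 and the snRNA gene Gm25515 on the same strand.

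Aldh1l2 (NCBI Gene 216188, chromosome 10, 83487447 to 83534146) had few counts, with 24, 6 and 13 counts in untreated and 33, 40 and 25 counts in doxycycline libraries. The groups were separated by 1 count at their nearest, although the libraries differ in depth. In CPM this was 0.547, 0.180 and 0.347 against 1.04, 0.980 and 0.653, a fitted log2 fold change of 1.26 with an SE of 0.41 and an edgeR adjusted p of 0.111. Aldh1l2 overlaps D10Wsu102e on the opposite strand, which stood at 70.6 ± 1.04 and 78.2 ± 1.30 CPM with a log2 fold change of 0.15 (edgeR adjusted p 0.137). The strand setting of the counting is not stated, so reads from the neighbour could stand among those of Aldh1l2, and its part in the value was not tested.

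**Figure D3:**
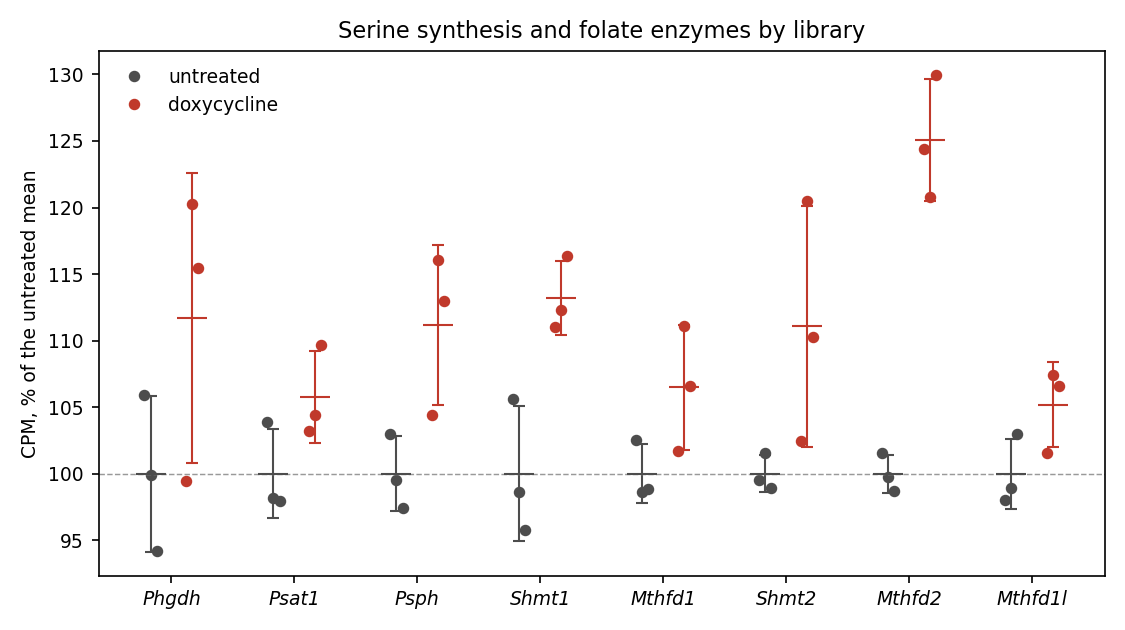
CPM of 8 members in each library as a percentage of that gene's untreated mean, with untreated libraries in grey, doxycycline libraries in red, and bars for the mean and SD over 3 libraries. The 3 doxycycline libraries of Mthfd2, at 88.8 to 95.5 CPM, lie clear of its untreated libraries, while for Phgdh, Psat1, Mthfd1 and Mthfd1l the groups overlap.

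The mitochondrial branch as a whole was then set beside the cytosolic enzymes. The median log2 fold change was 0.15 for the 5 cytosolic members and 0.15 for Shmt2, Mthfd2 and Mthfd1l. With the sparsely counted Aldh1l2 the mitochondrial median was 0.24. No test was made of a score over chosen members. The mean log2 CPM of Shmt2, Mthfd2 and Mthfd1l minus that of the cytosolic members was -0.20, -0.12 and -0.09 in untreated and -0.07, -0.10 and -0.10 in doxycycline libraries, and these overlapped. Taken alone, the mean log2 CPM of these 3 mitochondrial members was 6.81, 6.82 and 6.82 in untreated and 6.94, 7.03 and 7.02 in doxycycline libraries, which did not overlap. That of the cytosolic members was 7.01, 6.94 and 6.91 against 7.01, 7.12 and 7.12, which did. The rise in the mean was 0.18 for the mitochondrial members, Mthfd2 among them, and 0.13 for the cytosolic ones. These rises were not tested against each other.

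Enzymes of the 2 compartments that act on like steps were also compared library by library. The log2 ratio of Shmt2 to Shmt1 CPM was 1.27, 1.40 and 1.40 in untreated and 1.24, 1.46 and 1.28 in doxycycline libraries. That of Mthfd1l to Mthfd1 was -0.92, -0.85 and -0.79 against -0.86, -0.90 and -0.85. Both pairs overlapped between the groups. The log2 ratio of Mthfd2 to Mthfd1 was -1.39, -1.36 and -1.38 in untreated and -1.08, -1.25 and -1.09 in doxycycline libraries, without overlap. It holds the rise of Mthfd2, the called member. Within the mitochondrial branch, the log2 ratio of Mthfd2 to Shmt2 was -1.29, -1.35 and -1.33 against -1.04, -1.32 and -1.09, which overlapped. These ratios are not corrected for length, so their differences between groups can be read and their levels cannot.

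**Figure D4:**
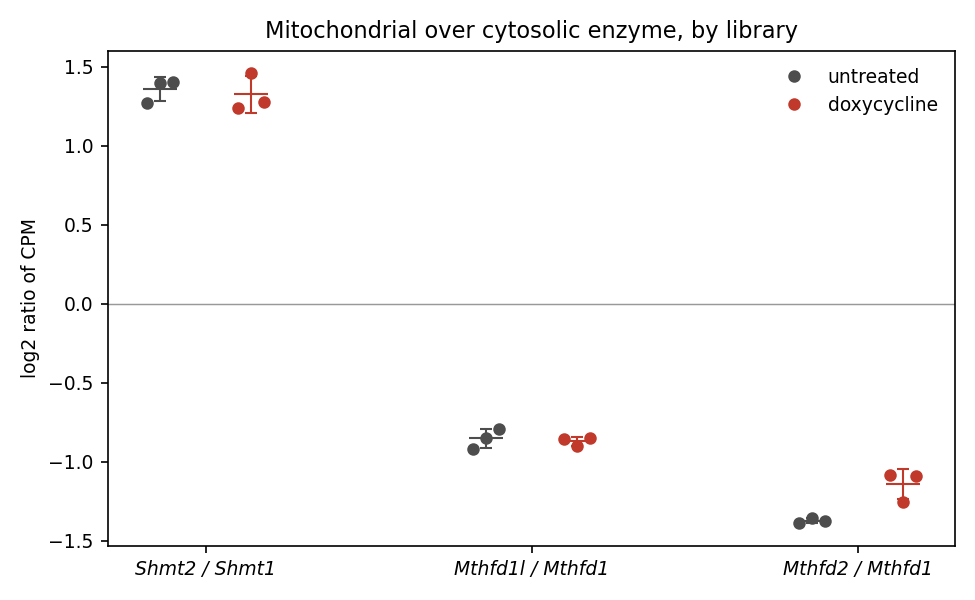
Log2 ratio of the CPM of a mitochondrial enzyme to its cytosolic counterpart in each library, with the mean and SD of 3 libraries per group. The doxycycline libraries lie above the untreated ones for Mthfd2 over Mthfd1, at -1.25 to -1.08 against -1.39 to -1.36, and overlap with them for the other pairs.

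Genes around the members in the same pathways were taken from lists that were written with earlier results of these data known. Among other folate enzymes and carriers 11 of 15 genes were tested, with a median log2 fold change of 0.03. Of these, 0 were called higher and 0 lower by edgeR, DESeq2 and limma voom, and 3 had an unadjusted p under 0.05, a share to be read against 16.2% of all genes tested, as for the lists that follow. Fpgs, which adds glutamates to folate and so retains it in the cell, had 22.5 ± 1.18 and 27.2 ± 2.30 CPM (log2 fold change 0.27, edgeR adjusted p 0.0667). Ggh, which removes those glutamates, had 4.45 ± 0.986 and 3.15 ± 0.285 CPM (log2 fold change -0.51, edgeR adjusted p 0.140). Tyms, the thymidylate synthase, had 97.3 ± 2.33 and 96.9 ± 2.44 CPM (log2 fold change -0.01, edgeR adjusted p 0.971). Mthfd2l, the mitochondrial paralogue of Mthfd2, had 19.96 ± 0.37 and 18.8 ± 1.78 CPM (log2 fold change -0.09, edgeR adjusted p 0.655), and its groups overlapped. Fpgs passed the threshold without doxycycline replicate 1 or 2. Aldh1l1, the cytosolic counterpart of Aldh1l2, had 0 counts in every library, a limit of 0.0944 CPM in the shallowest library.

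On the supply and use of serine, 13 of 14 genes were tested, with a median of 0.04. Slc1a5 was the only call, and of all genes tested 0.925% were called higher. At an unadjusted p under 0.05 there was 1 of the 13 (background 16.2%). Slc1a5, a neutral amino acid transporter known for glutamine uptake, had 112, 107 and 100 CPM in untreated and 120, 124 and 124 CPM in doxycycline libraries. Its log2 fold change was 0.20 with an SE of 0.05 and an edgeR adjusted p of 0.0257. Leaving out untreated replicate 2, untreated replicate 3 or doxycycline replicate 3 ended this call, with edgeR adjusted p-values up to 0.244. Sfxn1, the carrier that brings serine into mitochondria, had a log2 fold change of 0.07 (edgeR adjusted p 0.512).

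In the glycine cleavage system, which also feeds mitochondrial folate, 4 of 4 genes were tested, and 0 were called by edgeR, DESeq2 and limma voom, with 1 of 4 at an unadjusted p under 0.05 (background 16.2%). This was Gcsh, the lipoyl carrier protein, with 94.3 ± 4.05 and 104 ± 3.27 CPM (log2 fold change 0.14, edgeR adjusted p 0.156). Gcsh passed the threshold without doxycycline replicate 2 (edgeR adjusted p 0.0285). Gldc, the decarboxylase of the system, was at most 1.002 CPM in any library.

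In the methionine cycle, 9 of 13 genes were tested, with a median of 0.01, 0 calls by edgeR, DESeq2 and limma voom, and 3 of 9 at an unadjusted p under 0.05 (background 16.2%). Mtrr, the methionine synthase reductase, and Mtr, the synthase itself, had log2 fold changes of 0.19 and 0.18 (edgeR adjusted p 0.143 and 0.209). Mat2b, a regulatory subunit of methionine adenosyltransferase, had a log2 fold change of -0.15 (edgeR adjusted p 0.283), with the doxycycline libraries all below the untreated ones. In de novo purine synthesis, which takes formyl groups from folate, 6 of 6 genes were tested, with a median of 0.10 and 0 calls by edgeR, DESeq2 and limma voom. At an unadjusted p under 0.05 there were 2 of 6 (background 16.2%), Pfas at 0.14 and Gart at 0.12 (edgeR adjusted p 0.107 and 0.281), and Gart stood at 0.18 without doxycycline replicate 1 (edgeR adjusted p 0.0369) and at 0.07 without doxycycline replicate 2 (edgeR adjusted p 0.435).

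Glycolytic genes on either side of 3-phosphoglycerate, the point at which Phgdh draws carbon off, were set beside the members. Pgk1, which makes the intermediate, fell from 409 ± 7.68 to 356 ± 10.9 CPM (-0.20 ± 0.04 SE on the log2 scale, with an edgeR adjusted p of 0.0115). Pgam1, which draws it on down glycolysis, had 180, 181 and 192 CPM in untreated and 163, 158 and 167 CPM in doxycycline libraries (-0.18 ± 0.05 SE on the log2 scale, with an edgeR adjusted p of 0.0335). Of the 6 genes 2 were called lower and 0 higher, against 2.16% and 0.925% of all genes tested, with a median of -0.08. At an unadjusted p under 0.05 there were 2 of the 6 (background 16.2%). Without untreated replicate 1, untreated replicate 3 or doxycycline replicate 3, 0 of them were called, and without untreated replicate 2 only Pgk1 was. The largest adjusted p was 0.110 for Pgk1 and 0.268 for Pgam1. The gene listed as Eno1 had 0.939 ± 0.178 CPM in untreated libraries while Eno1b, a near-identical copy, had 144 ± 9.85, so the enolase value is uncertain. The log2 ratio of Phgdh to Pgam1 CPM was 0.12, 0.02 and -0.15 in untreated and 0.17, 0.49 and 0.35 in doxycycline libraries, which did not overlap. That of Psat1 to Pgam1 was 0.996, 0.906 and 0.814 against 1.13, 1.19 and 1.18, also without overlap, and neither ratio was tested. Pgam1 was itself called lower, and Phgdh and Psat1 each overlapped between the groups, so both ratios hold the fall of Pgam1.

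Of ATF4 and other amino acid response genes, 15 of 15 were tested, with a median of 0.08. By edgeR, 2 of these were called higher and 0 lower, against 0.925% and 2.16% of all genes tested. The DESeq2 Wald test called 3 higher and 0 lower, and limma voom 2 higher and 0 lower. At an unadjusted p under 0.05 there were 5 of the 15 (background 16.2%). Atf4 had 174, 166 and 171 CPM in untreated and 187, 201 and 200 CPM in doxycycline libraries (0.20 ± 0.05 SE on the log2 scale, with an edgeR adjusted p of 0.0149), and Asns had 124, 118 and 121 against 130, 145 and 147 CPM (0.21 ± 0.05 SE on the log2 scale, with an edgeR adjusted p of 0.0221). Both calls were lost in the same 4 of the 6 fits that left out a library, those without any 1 untreated replicate or without doxycycline replicate 3, with largest adjusted p-values of 0.121 and 0.153. Slc7a5 had a log2 fold change of 0.18 (edgeR adjusted p 0.0591) with the doxycycline libraries all above the untreated ones. Slc7a11, the cystine transporter, had a log2 fold change of -0.20 (edgeR adjusted p 0.0805) with the doxycycline libraries all below the untreated ones. Myc, another known regulator of serine and folate genes, had 373 ± 9.46 and 378 ± 7.37 CPM (log2 fold change 0.02, 95% interval -0.07 to 0.11, edgeR adjusted p 0.873).

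**Figure D5:**
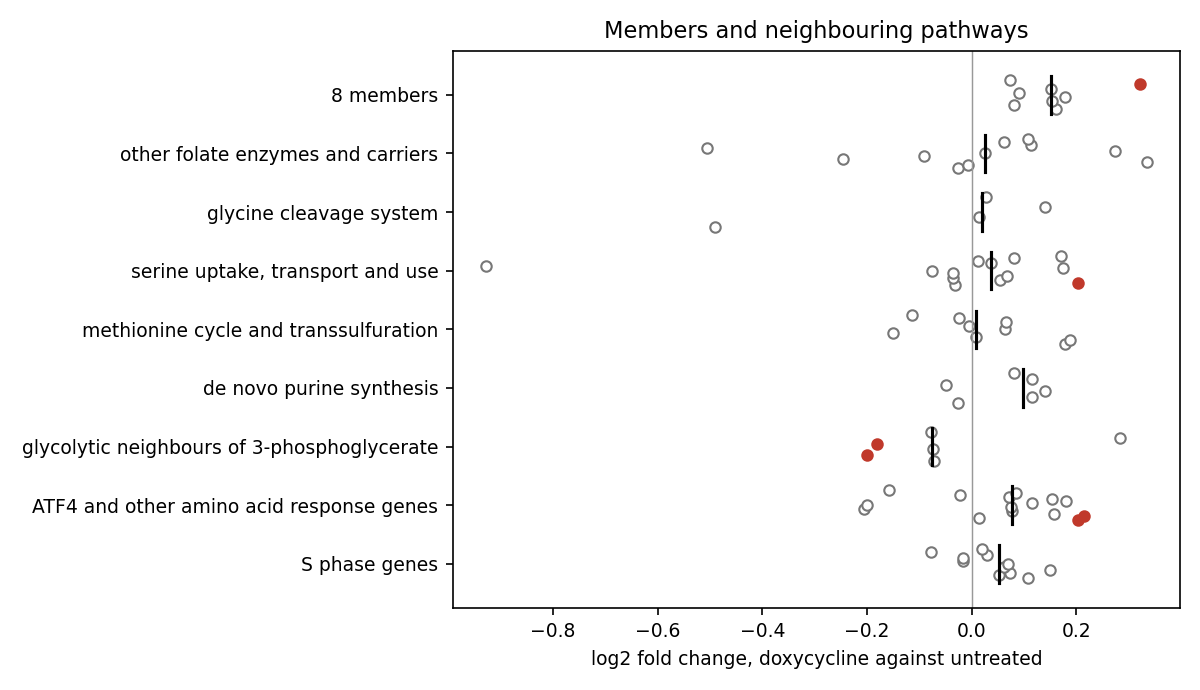
Log2 fold changes of 8 members and of the tested genes of neighbouring pathways, with a point per gene, filled in red where past the threshold, and a black bar at each median. The members have a median of 0.15, the other lists lie between -0.08 and 0.10, and the calls outside the members are Slc1a5, Pgk1, Pgam1, Atf4 and Asns.

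The profile of Mthfd2 over the 6 libraries was compared with those of 8774 other genes of at least 10 CPM, as the root-mean-square distance between centred log2 CPM values. The nearest was Sqle, the squalene epoxidase of cholesterol synthesis, at a distance of 0.0274, with 194, 196 and 200 CPM in untreated and 248, 239 and 254 CPM in doxycycline libraries. AI506816 (0.0299), Pdp2, a pyruvate dehydrogenase phosphatase (0.0302), Stard4, a sterol carrier (0.0339), and Tor2a (0.0343) followed. Their log2 fold changes were 0.33 for Sqle, 0.34, 0.31, 0.30 and 0.29, Stard4 lost its call without untreated replicate 3, and Tor2a was not called (edgeR adjusted p 0.0682). These genes were picked for profiles near that of Mthfd2 in these same libraries, so fold changes near its own follow from that choice. Among the members the nearest to Mthfd2 was Shmt1 at 0.0793, with Psph at 0.104 and the remaining 5 of the 8 at 0.123 to 0.135. Among genes of at least 10 CPM, Shmt1 ranked 109 by this distance, Psph 393 and these 5 from 893 to 1401.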

How the data were processed

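Per the labels and the study's methods, libraries depleted of ribosomal RNA were made with a strand-preserving kit from total RNA of 6 samples. Alignment was with STAR to mm10 (GRCm38), and the authors deposited raw read counts per gene from featureCounts (Subread 1.6.2 in the submitters' processing notes), without normalization. Strand setting and treatment of multiply mapped reads are not given in the sources used here. All 6 columns were matched to samples by library code, and groups were taken from the titles.

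Counts were tested with edgeR 4.0.16 in R 4.3.3 (quasi-likelihood, robust, TMM, filterByExpr, group as the only term), which left 13084 genes, with Benjamini-Hochberg adjustment at 0.05 over all of them. Log2 fold changes are doxycycline against untreated. SE was derived from the F statistic and the log2 fold change, and intervals use the t distribution of the fit. Log2 CPM for ratios and distances used an offset of 0.5 counts. Alternatives were other scalings, filters, DESeq2 1.42.0, limma 3.58.1 voom, a replicate block and leaving out each library. A GC content and length correction and leaving out Rn45s were chosen after seeing the data.

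The members and gene lists were chosen with earlier results of these data known. Named genes are all members, each list's calls or else its 2 smallest p-values, Atf4, Myc and the 5 genes nearest in profile to the member with the smallest p. Other genes were named for their role or after their values were seen (Tyms, Ggh, Mat2b, Mthfd2l, Aldh1l1, Sfxn1, Slc7a5, Slc7a11, Adgre1, Ptprc and the overlapping or near-identical genes). Some values that this rule would name are not reported here. Exon lengths are from GENCODE M21, and coordinates and promoters from RefSeq, both GRCm38. Replicate pairs differed by more than sampling noise, with a chi-square per degree of freedom of 5.50 to 19.0. Pairs from different groups had 7.92 to 27.9. The largest value within a group and the largest between groups both involved doxycycline replicate 2.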

Additional observations from a re-analysis of the deposited data

How the results depend on the processing

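Of the members, Mthfd2 was called higher in 16 of 16 alternatives, with log2 fold changes of 0.29 to 0.35. Psat1, Psph, Mthfd1, Mthfd1l and Aldh1l2 were called in 0, and no member changed sign. The number of members called higher was 2 without a filter, where Phgdh was added, and 3 with the GC content and length correction, where Shmt1 and Shmt2 were added. It ran from 1 to 3 when single libraries were left out. Over all genes, 210 were higher and 439 lower without a filter, and 405 and 432 with the GC content and length correction, against 121 and 283 as reported. Leaving out a library gave 44 to 269 higher and 116 to 487 lower. The smallest of these counts, in either direction, belonged to the fit lacking untreated replicate 3 and the largest to that lacking doxycycline replicate 2.

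In the lists, no filter gave 1 folate gene higher. It also gave 3 amino acid response genes higher and 1 lower, against 2 and 0 as reported. The GC content and length correction gave 2 folate, 1 purine and 1 S phase gene higher. Leaving out a library gave 0 to 2 folate, 0 to 1 glycine cleavage, 0 to 1 purine, 0 to 1 S phase, 0 to 1 serine transport and 0 to 3 amino acid response genes higher, and 0 to 3 glycolytic and 0 to 1 amino acid response genes lower. The cause was not tested. Other scalings, at least 10 counts in every library, DESeq2, limma voom and leaving out Rn45s moved no count by over 1.5 times. Aldh1l2 dropped out with at least 10 counts in every library and had no adjusted p in DESeq2.

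Libraries of the 2 groups share only replicate numbers in the labels. Deviations of same-numbered libraries correlated at -0.03, 0.002 and 0.02 across genes, and 0 of the 3 untreated libraries correlated best with its own number. With the replicate block 118 genes were higher and 300 lower, and 1 member was higher and 0 lower. Aldh1l2 had 6 counts in untreated replicate 2, and the part of library depth in this was not tested.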

Other observations

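S phase genes, which draw on the thymidylate and purines that folate enzymes supply, were tested for 11 of 11 listed genes, Myc included, with a median log2 fold change of 0.05. Of these, 0 were called by edgeR, DESeq2 and limma voom, and 2 of 11 had an unadjusted p under 0.05, against 16.2% of all genes tested. Mcm5, a subunit of the replicative helicase, had 262, 259 and 250 CPM in untreated and 266, 307 and 282 CPM in doxycycline libraries (log2 fold change 0.15, edgeR adjusted p 0.123), a value of 0.20 without doxycycline replicate 1 (edgeR adjusted p 0.0217) and of 0.09 without doxycycline replicate 2 (edgeR adjusted p 0.171). Mcm2, of the same complex, had 146 ± 5.61 and 158 ± 10.3 CPM (log2 fold change 0.11, edgeR adjusted p 0.306), and a log2 fold change of 0.05 without doxycycline replicate 2.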
